A study of Mus musculus with 18 samples.

Results

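The 10 genes described here encode the core of the BCL2 family, the proteins that decide whether the outer mitochondrial membrane is breached in apoptosis. They are 3 anti-apoptotic genes (Bcl2, Bcl2l1 and Mcl1), 2 effectors (Bax and Bak1) and 5 genes of the BH3-only class (Bad, Bid, Bbc3, Pmaip1 and Bcl2l11). They were taken by name, with earlier results of these data known, from the adjusted count tables of mouse embryonic stem cells (ESCs) and epiblast-like cells (EpiLCs). Of the 10 genes, 9 had a row among the 13104 genes of the ESC table and 10 among the 13717 genes of the EpiLC table. Bcl2 had no row in the ESC table, from which the authors had removed genes with low counts.

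The RNA-seq data comprised 12 libraries, 3 labelled biological replicates for each of vehicle and 100 nM Δ9-THC (tetrahydrocannabinol, the main psychoactive compound of cannabis) in each cell type. ESCs were grown in 2i+LIF medium, which holds them in naïve pluripotency, and EpiLCs were derived from them with activin A, bFGF and KnockOut Serum Replacement. Exposure was continuous: ESCs were exposed at their own stage, and EpiLCs were derived from exposed ESCs and exposed again. EpiLC libraries therefore had a longer exposure than ESC libraries. The vehicle was ethanol. All 4 groups carry the reporters Blimp1::mVenus and Stella::ECFP. The study describes its cultures as female ESCs. A male clone of this line served for separate checks of proliferation and of the induction of primordial germ cell-like cells (PGCLCs). The clone is not named again for the RNA-seq, so the groups may stand for 1 female clone.

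BCL2 family proteins act through binding to each other. BAX and BAK1 form the pores that release cytochrome c, and BCL2, BCL-XL (from Bcl2l1) and MCL1 hold them in check. BH3-only proteins tip this balance, either by binding the anti-apoptotic proteins or by activating the effectors, and several of them are induced by stress: PUMA (from Bbc3) and NOXA (from Pmaip1) are classical targets of p53, and BIM (from Bcl2l11) is a target of FOXO factors. Pluripotent cells are known for a low threshold to apoptosis, in which MCL1 and BCL-XL are the main survival proteins. Transcript levels do not show the amount or the binding of these proteins, many of which are controlled after transcription, and in bulk RNA fewer cells of a kind and less RNA per cell cannot be told apart.

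The totals of adjusted counts ran from 23427551 to 32096698 per library. The cell type labels were checked against markers: 8 of 8 naïve markers summed to 4279 to 4659 CPM (counts scaled to library size after TMM normalization) in ESCs and to 312 to 367 CPM in EpiLCs. Formative markers had rows for 6 of 8 genes and 158 to 177 CPM in ESCs, against 8 of 8 genes and 1793 to 2169 CPM in EpiLCs. The primitive endoderm list kept 1 of 5 genes in either table, at no more than 3.39 CPM, and the trophectoderm list 2 of 5, at 16.6 to 33.6 CPM with overlap between the exposures. Mesendoderm markers kept 2 of 4 genes in ESCs and 1 of 4 in EpiLCs, at no more than 7.52 CPM. The defining markers Gata6, Sox17, Cdx2 and Elf5 had no row in either table. Libraries with the same replicate number were not independent within a table (the correlations are given with the limits), while the tests treat them as independent. The SEs and p-values of fits without a replicate block may therefore be too small. The spread between replicates is what remained after the authors' batch adjustment.

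Bbc3 was the member that separated exposed from vehicle ESCs most, and Bcl2l11 is the other BH3-only gene whose start region holds the same FOXO core motif, so the start regions of these genes are shown first. RefSeq start regions of the build GRCm38.p6, from 250 bases before to 50 bases after a start, were found for 9 of the 10 members, in 15 windows. None was found for Pmaip1, whose start region was therefore not searched for any motif. The letters TGTTTAC, searched on both strands, occurred in 2 of these 15 windows and in 3.65% of all 32851 windows of the same length. They lie 167 to 161 bases before the second of 3 Bbc3 starts, at chr7:16310011-16310310 on the plus strand, and 227 to 221 bases before the first of 2 Bcl2l11 starts, at chr2:128125788-128126087 on the plus strand. Capitals mark the motif, which reads in reverse complement in the Bcl2l11 window.
Bbc3: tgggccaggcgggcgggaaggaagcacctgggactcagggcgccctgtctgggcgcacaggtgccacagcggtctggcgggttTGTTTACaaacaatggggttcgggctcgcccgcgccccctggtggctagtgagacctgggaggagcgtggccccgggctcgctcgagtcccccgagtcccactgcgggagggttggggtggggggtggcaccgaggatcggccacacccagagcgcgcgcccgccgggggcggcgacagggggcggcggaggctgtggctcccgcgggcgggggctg
Bcl2l11: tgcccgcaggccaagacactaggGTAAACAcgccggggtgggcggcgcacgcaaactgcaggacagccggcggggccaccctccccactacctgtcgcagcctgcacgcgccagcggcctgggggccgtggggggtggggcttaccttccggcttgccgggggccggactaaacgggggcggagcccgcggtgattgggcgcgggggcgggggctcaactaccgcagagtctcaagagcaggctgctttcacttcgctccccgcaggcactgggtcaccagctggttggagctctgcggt

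The E-box CACGTG, searched on both strands, occurred in the Bax window and in the window of the third Bbc3 start, against 7.15% of all windows. A p53 half-site occurred in the Bax window alone among the 15, against 8.36% of all windows. These matches describe letters and not bound factors. The Bbc3 window printed above is 74.7% G and C, and the longest transcript of Bbc3 holds 65.2%, the highest share of the 10 members. GC content is set beside the fold changes further on.

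In ESCs, Δ9-THC was compared with vehicle to see which members changed. With edgeR a single member was called: Bbc3, the gene of PUMA, was lower by 0.59 on the log2 scale. DESeq2 shared this call, and most of the other fits did not keep it. Of the 9 members, 1 was called (edgeR's quasi-likelihood test, Benjamini-Hochberg adjusted p no higher than 0.05), against 6.91% of all 13104 genes. At an unadjusted p-value under 0.05 there were 2 of 9 members, or 22.2%, against 28.7% of all genes, and the libraries of 2 members did not overlap between groups, against 32.6% of all genes. The median log2(fold-change) was 0.02 over the members and 0.00 over all genes, with 5 members above and 4 below 0.

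Bbc3 (ENSMUSG00000002083, chromosome 7 from 16308393 to 16318205 in GRCm38) had 13.4, 14.7 and 12.5 CPM in the vehicle ESCs and 9.09, 8.20 and 9.85 CPM in the exposed ESCs. Every exposed library lay below every vehicle library. The group levels were 13.5 ± 1.07 CPM with the vehicle and 9.05 ± 0.829 CPM with Δ9-THC (SD, n = 3), a log2(fold-change) of -0.59 (SE 0.089, 95% interval -0.80 to -0.37, edgeR, Benjamini-Hochberg adjusted p = 0.0301). Bbc3 was also called with DESeq2 (adjusted p = 0.000666). The call was lost when any of the 6 libraries was left out. In these fits the adjusted p-values of Bbc3 were 0.0721 to 0.134 (edgeR), with a log2(fold-change) of -0.65 to -0.51. Almost no gene of the ESC table was called in them, as given with the limits. With offsets that take out each library's dependence on GC content and length, the log2(fold-change) of Bbc3 was -0.35 (edgeR, adjusted p = 0.173). Bbc3 was also not called in the fit of all 12 libraries (edgeR, adjusted p = 0.0629) or with the replicate number as a block. The block fit gave a log2(fold-change) of -0.58 (SE 0.13, 95% interval -0.87 to -0.29, edgeR, adjusted p = 0.414). The offsets and the block left few genes of the ESC table called.

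Among the anti-apoptotic genes, Mcl1 was the most abundant, and its product is a short-lived protein that restrains BAK1 and BAX. Mcl1 (ENSMUSG00000038612, chromosome 3 from 95658788 to 95663176) had 462, 395 and 431 CPM in the vehicle ESCs and 458, 533 and 495 CPM with Δ9-THC. The groups overlapped, since the first vehicle library lay above the first exposed library. The means were 429 ± 33.6 and 495 ± 37.8 CPM (SD, n = 3), with a log2(fold-change) of 0.21 (SE 0.074, edgeR, adjusted p = 0.129). DESeq2 placed Mcl1 past the threshold, at an adjusted p of 0.0447.

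Bcl2l1 (ENSMUSG00000007659, chromosome 2 from 152780668 to 152831728) had 41.8, 41.9 and 42.3 CPM in the vehicle ESCs and 41.1, 41.2 and 40.9 CPM with Δ9-THC. The groups did not overlap, yet the means of 42.0 ± 0.293 and 41.0 ± 0.138 CPM (SD, n = 3) differed by a log2(fold-change) of -0.03 (SE 0.029, edgeR, adjusted p = 0.536). The SD of Bcl2l1 was smaller than the 1.19 CPM that counting error alone gives for its mean of 1240 counts per vehicle library. It was the only member with such a narrow spread in both groups of ESCs.

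The effector genes were lower on average with Δ9-THC, and both overlapped between groups. Bak1 (ENSMUSG00000057789, chromosome 17 from 27019810 to 27029009) had 83.9, 77.6 and 89.2 CPM with the vehicle and 74.3, 80.2 and 70.2 CPM with Δ9-THC, and its log2(fold-change) of -0.16 did not pass (SE 0.067, edgeR, adjusted p = 0.183). Bax (ENSMUSG00000003873, chromosome 7 from 45461697 to 45466898) ran from 49.5 to 55.8 CPM with the vehicle and from 48.8 to 54.8 CPM with Δ9-THC. The fitted difference was -0.06 on the log2 scale (SE 0.065, edgeR, adjusted p = 0.565), and its sign turned, to 0.13, with the GC and length offsets.

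Of the BH3-only genes besides Bbc3, none was called in ESCs by edgeR or DESeq2. Bcl2l11 (ENSMUSG00000027381, chromosome 2 from 128126038 to 128162547) had 13.6, 11.9 and 12.8 CPM with the vehicle and 13.2, 15.0 and 14.2 CPM with Δ9-THC. Its log2(fold-change) of 0.15 did not pass (SE 0.071, edgeR, adjusted p = 0.220). The groups overlapped, and the point estimate lay on the opposite side of 0 from that of Bbc3. Bid, whose protein links death receptors to mitochondria once cut by caspase-8, Bad, which is held inactive by survival kinases, and Pmaip1, whose product NOXA binds MCL1, had log2(fold-change) values between 0.02 and 0.07. Their adjusted p-values were 0.656 to 0.795 with edgeR.

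**Figure D1:**
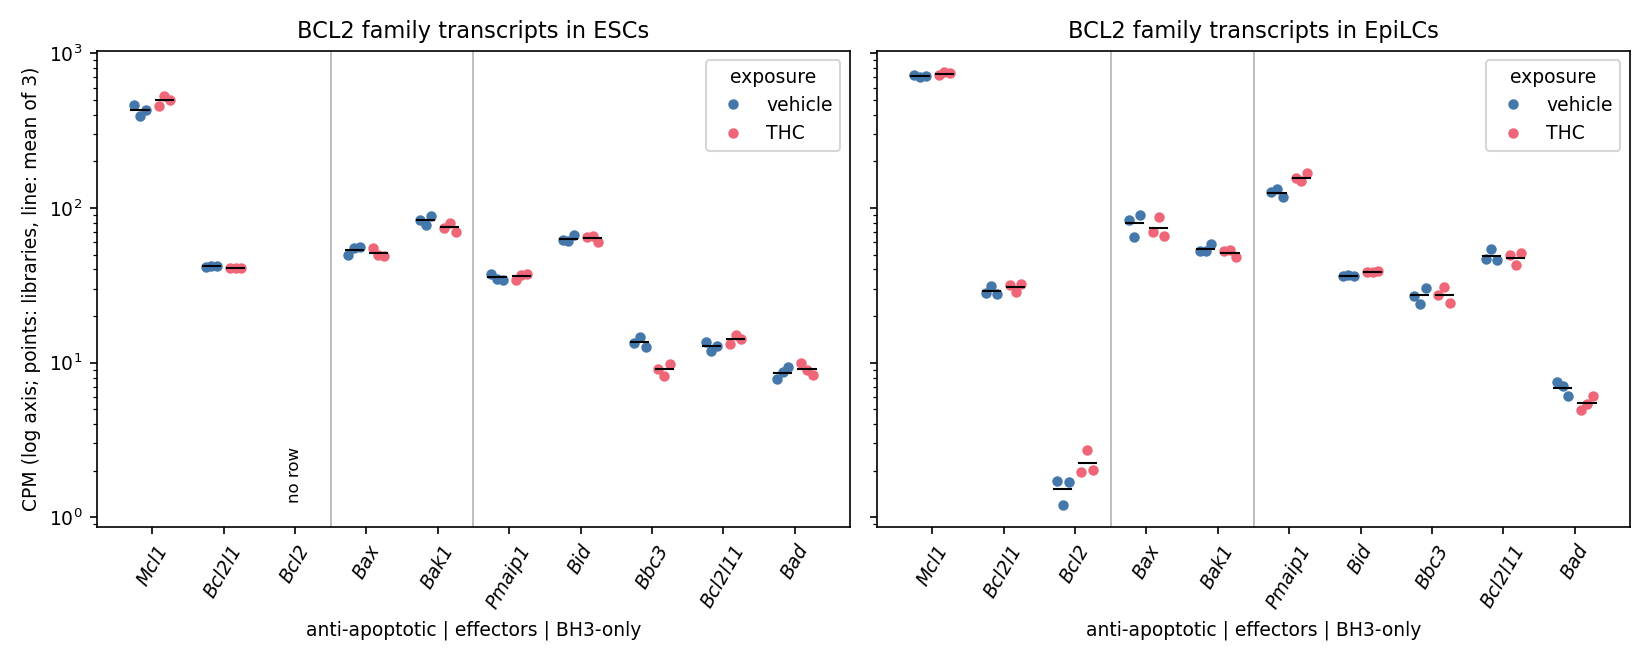
CPM of each member in each library (log axis) in ESCs and EpiLCs, with the vehicle in blue and Δ9-THC in red; points are libraries and lines are means of 3. In ESCs the 3 exposed Bbc3 points (8.20 to 9.85 CPM) lie below the vehicle points (12.5 to 14.7 CPM), while in EpiLCs they overlap.

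The same comparison in EpiLCs called 0 of 10 members with edgeR, where 0.0% of the 13717 genes were called, and 0 members with DESeq2, which called 71 genes. At an unadjusted p-value under 0.05 there were 3 members, Pmaip1 and Bcl2 with higher and Bad with lower levels after Δ9-THC, or 30.0% against 15.1% of all genes. The libraries of 4 members (these 3 and Bid) did not overlap between groups, against 21.8% of all genes. The median log2(fold-change) was 0.03 over the members and 0.00 over all genes.

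Pmaip1 (ENSMUSG00000024521, chromosome 18 from 66458533 to 66465565) had 127, 133 and 118 CPM in the vehicle EpiLCs and 155, 149 and 167 CPM with Δ9-THC. Each exposed library was above each vehicle library, with means of 126 ± 7.58 and 157 ± 9.10 CPM (SD, n = 3). The log2(fold-change) was 0.32 (SE 0.073, 95% interval 0.15 to 0.50, edgeR, adjusted p = 0.172). Pmaip1 passed the threshold only in the fit of all 12 libraries (edgeR, adjusted p = 0.0257), and its adjusted p with DESeq2 was 0.0990.

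Bcl2 (ENSMUSG00000057329, chromosome 1 from 106538178 to 106714274), the founding anti-apoptotic gene of the family, was scarce, with 38 to 69 counts per library. It had 1.72, 1.19 and 1.68 CPM in the vehicle EpiLCs and 1.95, 2.72 and 2.02 CPM with Δ9-THC. The groups did not overlap, with a log2(fold-change) of 0.55 and a wide 95% interval of 0.06 to 1.04 (SE 0.20, edgeR, adjusted p = 0.289). Bad (ENSMUSG00000024959, chromosome 19 from 6941861 to 6951899) had 7.49, 7.01 and 6.11 CPM with the vehicle and 4.91, 5.43 and 6.11 CPM with Δ9-THC. Its groups touched without overlapping, and the log2(fold-change) was -0.33 (SE 0.12, edgeR, adjusted p = 0.293).

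Bbc3 in EpiLCs had 27.1, 24.0 and 30.5 CPM with the vehicle and 27.2, 30.8 and 24.5 CPM with Δ9-THC. The groups covered nearly the same range, and the log2(fold-change) was 0.02 (95% interval -0.27 to 0.30, edgeR, adjusted p = 0.961). Mcl1 had 724, 705 and 712 CPM with the vehicle and 723, 752 and 740 CPM in exposed EpiLCs, with a fitted log2(fold-change) of 0.05 (95% interval -0.10 to 0.20, edgeR, adjusted p = 0.743). Bid (ENSMUSG00000004446, chromosome 6 from 120891930 to 120916853) rested at 36.3 to 37.1 CPM with the vehicle and 38.3 to 38.9 CPM in exposed EpiLCs, with a fitted log2(fold-change) of 0.08 (edgeR, adjusted p = 0.513). The SD of Bid in both EpiLC groups was below the counting error, as it was for Bcl2l1 in ESCs. For Bcl2l1, Bax, Bak1 and Bcl2l11 the groups overlapped, with log2(fold-change) values of -0.10 to 0.08.

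**Figure D2:**
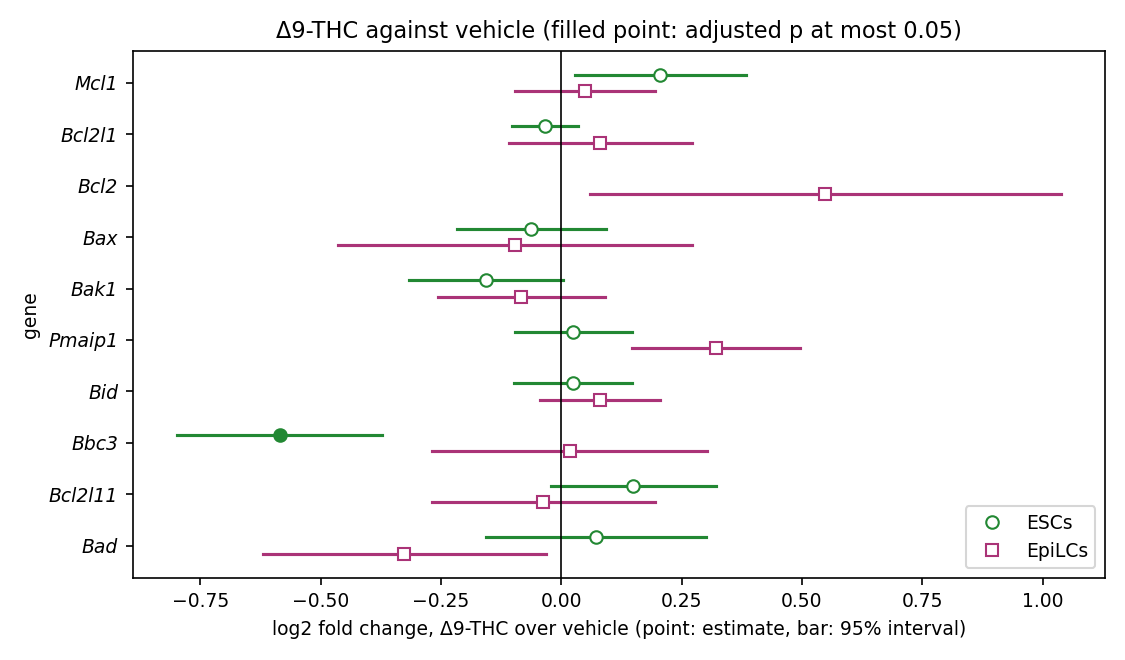
Log2 fold change of Δ9-THC over vehicle for each member, with its 95% interval, in ESCs (circles) and EpiLCs (squares); a filled point has an adjusted p of at most 0.05 (edgeR). The filled point is Bbc3 in ESCs, at -0.59, and the EpiLC interval of Bcl2 is the widest, from 0.06 to 1.04.

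Whether the response differed between ESCs and EpiLCs was examined with an interaction term over the 12 libraries, for the 9 members with a row in both tables. None of the 9 was called with edgeR, where 4 of 12410 genes, 0.0322%, were called. At an unadjusted p-value under 0.05 there were 3 members, 33.3% against 13.7% of all genes. These were Bbc3, Pmaip1 and Bad, all of the BH3-only class. The effect in EpiLCs minus that in ESCs was 0.62 for Bbc3 (SE 0.16, edgeR, adjusted p = 0.131), 0.31 for Pmaip1 (SE 0.092, edgeR, adjusted p = 0.165) and -0.38 for Bad (SE 0.16, edgeR, adjusted p = 0.330). A difference in the response of Bbc3 between ESCs and EpiLCs was therefore not called. Since EpiLCs had also been exposed as ESCs, the interaction cannot tell cell type from the length and history of exposure.

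The balance of the family was described as the summed level of the anti-apoptotic members over that of the pro-apoptotic members, in CPM per kb of exon, so that genes of unequal length could be added. Exon lengths were those of GENCODE M21, and reads on bases shared with a neighbour were not assigned by the authors' counting. This affects Bak1 (25.5% of its exonic bases shared with Ggnbp1), Bad (20.5%, Gpr137), Bid (17.7%, Bcl2l13) and Bax (12.2%, Gm45808) most. These genes are all pro-apoptotic, while Mcl1 and Bcl2l1 shared 0.0% of their bases. Full exon lengths were used, so the levels per kb of the affected genes may be too low. The ratios of anti- to pro-apoptotic levels may then be too high in every group, by an amount that was not computed. No test was run on the balance.

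In ESCs the ratio of anti- to pro-apoptotic transcripts was 1.33, 1.15 and 1.18 in the vehicle libraries and 1.34, 1.55 and 1.53 in the exposed libraries. The exposed libraries all lay above the vehicle libraries, but the first exposed and the first vehicle library were nearly equal. On the log2 scale vehicle libraries averaged 0.28 ± 0.12 and exposed libraries 0.56 ± 0.12 (SD, n = 3), a difference of 0.28. The difference was 0.17 with GC and length offsets and 0.16 when each gene counted equally, as a difference of mean log2 levels. The summed anti-apoptotic level moved from 135 ± 9.82 CPM per kb in vehicle libraries to 154 ± 11.1 in exposed ones, and the pro-apoptotic level from 111 ± 3.76 to 104 ± 3.27. Mcl1 alone made up 92.7% to 94.6% of the anti-apoptotic sum, and without it the difference was 0.05. Bbc3, the called member, contributed 6.37 ± 0.504 and 4.26 ± 0.390 CPM per kb to the pro-apoptotic sum.

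In EpiLCs the ratio was 1.42, 1.49 and 1.37 with the vehicle and 1.41, 1.37 and 1.45 with Δ9-THC. The groups covered the same range, at 0.51 ± 0.063 and 0.50 ± 0.041 on the log2 scale (SD, n = 3), a difference of -0.01. Within the pro-apoptotic side, the summed BH3-only level ran from 75.8 to 79.8 CPM per kb with the vehicle and from 87.4 to 92.4 with Δ9-THC, without overlap, while the effectors overlapped at 63.0 to 81.1 and 61.6 to 77.6. Pmaip1, which was not called, had 46.0 ± 2.78 and 57.5 ± 3.33 CPM per kb of these sums, while Bbc3 had 12.8 and 12.9, Bid 10.3 and 10.9, Bcl2l11 6.10 and 5.95, and Bad 2.68 and 2.14. When each gene counted equally, the EpiLC difference was 0.24, a value in which the scarce Bcl2 weighs as much as Mcl1.

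**Figure D3:**
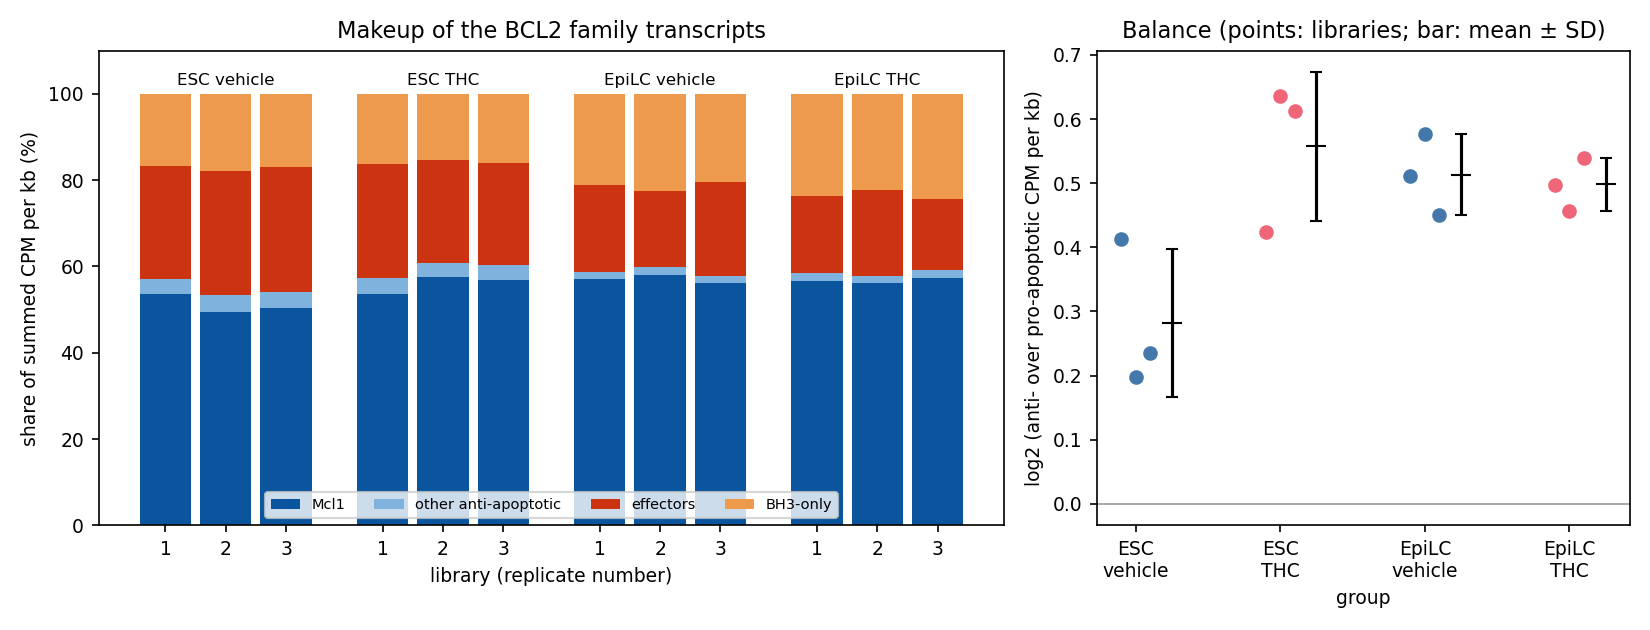
Left, share (%) of the summed CPM per kb of the members held by Mcl1, the other anti-apoptotic genes, the effectors and the BH3-only genes in each library; right, log2 ratio of anti- to pro-apoptotic CPM per kb per library, with mean ± SD of 3. Exposed ESC libraries lie at 0.42 to 0.64 against 0.20 to 0.41 with the vehicle, and both EpiLC groups lie between 0.45 and 0.58.

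The order of the members per kb of exon was led by Mcl1 in all 4 groups. In vehicle ESCs, Mcl1 at 126 ± 9.83 CPM per kb was followed by Bak1 (34.7 ± 2.42) and Bax (33.9 ± 2.16), whose libraries overlapped. Bid (17.8), Pmaip1 (13.0), Bcl2l1 (9.16), Bbc3 (6.37), Bad (3.37) and Bcl2l11 (1.59) came next, each separate from its neighbours. In exposed ESCs the places of Bax and Bak1 were exchanged within their spread, and Bbc3 (4.26 ± 0.390) overlapped with Bad (3.54 ± 0.327).

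In vehicle EpiLCs, Mcl1 (209 ± 2.83 CPM per kb) was followed by Bax (50.4 ± 8.16) and Pmaip1 (46.0 ± 2.78), which overlapped, and in exposed EpiLCs Pmaip1 (57.5 ± 3.33) stood before Bax (47.1 ± 7.29), again with overlap. Bak1, Bbc3, Bid, Bcl2l1, Bcl2l11, Bad and Bcl2 came next in both groups, and among these only Bcl2l1 and Bcl2l11 overlapped. Bcl2 was last, at 0.167 ± 0.0319 CPM per kb with the vehicle.

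The levels of the members also stood apart between the cell types. They come from tables that the authors adjusted separately, so they are set side by side without a test. In the vehicle groups, Bcl2l11 stood at 12.8 ± 0.811 CPM in ESCs and 49.0 ± 4.33 in EpiLCs (SD, n = 3), 3.84 times as high. Pmaip1 stood at 35.6 ± 1.53 and 126 ± 7.58 CPM, 3.54 times as high, and Bbc3 at 13.5 ± 1.07 and 27.2 ± 3.22 CPM, 2.01 times as high. The exposed groups gave ratios of 3.38, 4.34 and 3.04 for the same genes.

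Mcl1 was 1.66 times and Bax 1.49 times as high in vehicle EpiLCs as in vehicle ESCs. In the other direction, levels in vehicle ESCs were 1.72 times as high as in vehicle EpiLCs for Bid, 1.54 times for Bak1, 1.45 times for Bcl2l1 and 1.26 times for Bad. The libraries of the cell types did not overlap for any of the 9 members with rows in both tables. The share of all genes with such a separation was not counted, so it cannot be said whether this is particular to the members. BH3-only genes held 16.7% to 17.9% of the summed level per kb in vehicle ESCs and 20.4% to 22.4% in vehicle EpiLCs, and the effectors held 26.2% to 28.9% and 17.7% to 21.8%.

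**Figure D4:**
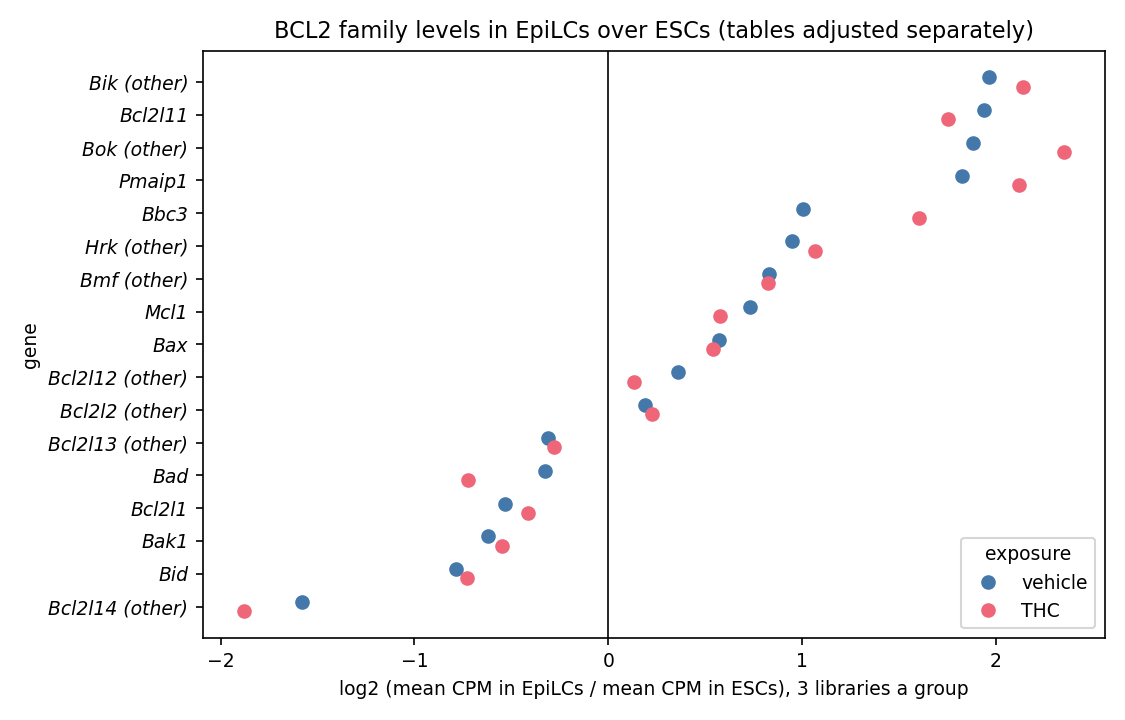
Log2 ratio of the mean CPM in EpiLCs over that in ESCs, for vehicle (blue) and Δ9-THC (red) groups of 3 libraries each, for 9 members and 8 other family genes. Bcl2l11 and Pmaip1 lie near 2, Bbc3 moves from 1.01 with the vehicle to 1.60 with Δ9-THC, and Bid and Bak1 lie below 0.

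Of 13 further BCL2 family genes, 8 had rows in both tables, and none of the 8 was called in ESCs or EpiLCs with edgeR. Their median log2(fold-change) was -0.02 in ESCs and 0.03 in EpiLCs, with 0 of 8 (against 28.7% of all genes) and 2 of 8 (25.0%, against 15.1%) at an unadjusted p-value under 0.05. Bcl2l12 had a log2(fold-change) of -0.38 (SE 0.10, edgeR, adjusted p = 0.204) and Bcl2l14 of -0.24 (SE 0.077, edgeR, adjusted p = 0.239) in EpiLCs. Between the vehicle groups of the cell types, the BH3-only genes Bik, Hrk and Bmf stood 3.90, 1.93 and 1.78 times as high in EpiLCs, and Bok, an effector-like gene, 3.68 times. Bcl2l14 was 2.99 times as high in ESCs. Bcl2l2 (the gene of BCL-W, an anti-apoptotic protein), Bcl2l12 and Bcl2l13 were within 1.28 times in the EpiLC direction or 1.24 times in the ESC direction.

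The steps around the family were covered by 35 genes for the apoptosome and caspases, inhibitors of apoptosis and their antagonists, mitochondrial partners and regulators of the members, of which 34 had a row in each table. None of the 34 was called by edgeR in either cell type. At an unadjusted p-value under 0.05 there were 10 in ESCs, 29.4% and thus near the 28.7% of all genes, with 7 higher and 3 lower. In EpiLCs there were 6, or 17.6% against 15.1% of all genes, with 4 higher and 2 lower. The gene with the smallest p-value in ESCs was Xiap, an inhibitor of caspases (log2(fold-change) 0.27, SE 0.063, edgeR, adjusted p = 0.0519). In EpiLCs the smallest p-values were those of Apaf1, the scaffold of the apoptosome (0.32, SE 0.051, edgeR, adjusted p = 0.144), and Birc2, an inhibitor of apoptosis (0.32, SE 0.073, edgeR, adjusted p = 0.172).

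The fold changes of all genes in a table moved with the GC content of their longest transcripts, and the members spanned 42.1% (Pmaip1) to 65.2% (Bbc3). Across the 13083 ESC genes with a known GC content, Spearman's rho with the log2(fold-change) was -0.536, and across 13696 EpiLC genes it was -0.299 (genes are not independent replicates). Over the members the rho was -0.700 in ESCs (n = 9) and -0.697 in EpiLCs (n = 10), values that describe genes measured in the same libraries. In ESCs the twentieth of genes richest in GC had a median log2(fold-change) of -0.16 and the twentieth poorest in GC 0.18. Bbc3, at -0.59, lay outside the middle 50% of the former, -0.26 to -0.07. That bin had a median GC content of 60.95%, lower than that of Bbc3, and such a band leaves out 50% of genes by definition. Other members also lay outside the bands of their bins in ESCs, with Mcl1, Bcl2l11, Bad and Bax above and Pmaip1 below. With the offsets, Mcl1 in ESCs had a log2(fold-change) of 0.19 and Pmaip1 in EpiLCs 0.29, and neither was called by edgeR.

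**Figure D5:**
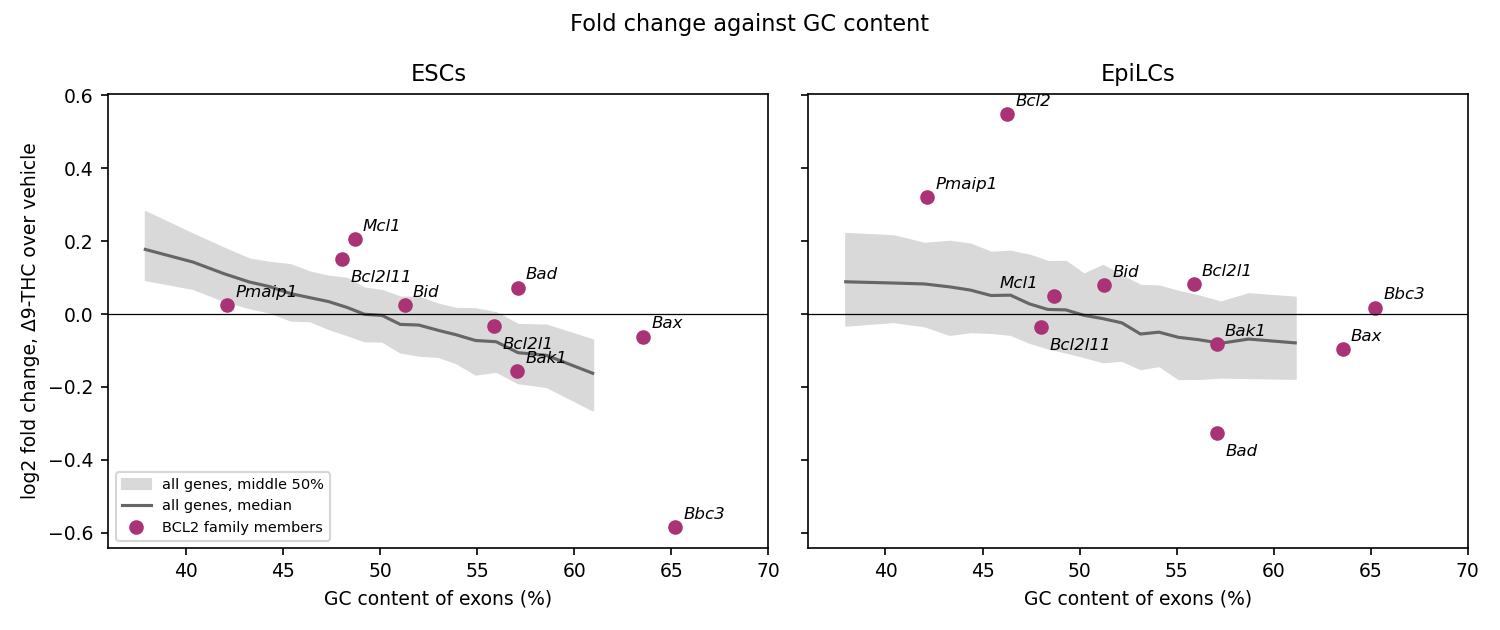
Log2 fold change of Δ9-THC over vehicle against the GC content (%) of each gene's longest transcript (the axis says exons) in ESCs and EpiLCs. Points are the members, and the line and band are the median and middle 50% of all genes in 20 bins of GC content. In ESCs the line falls from 0.18 to -0.16 and Bbc3 lies at -0.59, while in EpiLCs Bcl2, Pmaip1 and Bcl2l1 lie above the band and Bad below it.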

How the data were processed

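Polyadenylated RNA was turned into libraries with a KAPA or an ABClonal kit. Alignment by the authors used STAR with single-place reads only, HTSeq (union mode, strand ignored) gave gene counts, genes of low count were dropped, and ComBat-seq adjusted the rest, whose batches are not given in the sources used here. The deposited counts are these adjusted whole numbers, a table per cell type, not scaled to library size. Antisense overlaps therefore cannot be told apart. The deposited fold changes and p-values of the authors were not used, and PGCLCs were not analysed here.

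Of the sample columns, 12 were mapped by their labels and 0 were left over. Counts were scaled with TMM and tested per table with edgeR 4.0.16 (quasi-likelihood F test, Benjamini-Hochberg over all genes, threshold 0.05, genes with more than 10 counts in total, which was every gene) in R 4.3.3. The interaction used the 12410 genes of both tables. Levels are CPM, and SEs and 95% intervals come from the F statistic. Fits were tested on simulated data whose libraries were drawn independently. The dependence between same-numbered libraries of these tables was not simulated, so that test does not cover it. Depth per library was 23427551 to 32096698 counts; intervals cover the spread of adjusted counts, and p-values measure only the spread between these samples. Alternatives were RLE scaling, DESeq2 1.42.0, the replicate number as a block, GC and length offsets (splines, 5 degrees of freedom), a fit of 12 libraries, leaving out each library, no filter on counts, a floor of 10 counts for each library, and, for the balance, other ways to sum. Identifiers, lengths and GC content came from GENCODE M21 of GRCm38, and start regions from RefSeq. The methods name mm10 and GRCm39, so positions describe the genes and did not enter the counts. Python 3.11.15 and matplotlib 3.10.9 made tables and figures.

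The members, pathway lists and tests were chosen with earlier results of these data known. The text names the 10 members, all other family genes in a table, and from the pathway lists the called genes or, where there were none, the 2 with the smallest p-value per cell type. A pathway gene that this rule names is not reported here.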

Additional observations from a re-analysis of the deposited data

How the results depend on the processing

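The numbers do not meet the rule for pairing: deviations of same-numbered vehicle and Δ9-THC libraries correlated at -0.995 to -0.990 in ESCs and -0.991 to -0.985 in EpiLCs, against 0.181 to 0.721 for different numbers. With the replicate number as a block, 0 members and 5 genes were called in ESCs, 0 and 0 in EpiLCs, and 0 and 0 in the difference between cell types (1, 906, 0, 0, 0 and 4 without it). In ESCs, GC and length offsets left 0 members and 2 genes, the replicate block with these offsets 0 and 3, and a fit of all 12 libraries 0 and 31. The fits without 1 library left 0 to 0 and 0 to 1. DESeq2 called 2 members in ESCs, Bbc3 and Mcl1. The number of all genes it called there is not given here, so these 2 cannot be set against a share of all genes. In EpiLCs, DESeq2 called 71 genes, and the fit of all 12 libraries 411 genes and 1 member, Pmaip1. In the difference between cell types, the offsets left 0 genes, and the fits without 1 library 0 to 0. The balance difference was 0.050 in ESCs without Mcl1 and 0.24 in EpiLCs as a mean of log2 CPM per kb (0.28 and -0.01 in the text), and without 1 library it was 0.23 to 0.34 and -0.05 to 0.02. The balance in ESCs was 0.17 with GC and length offsets, less than 1 SD away. Signs of uncalled members turned as follows. With the offsets, without and with the block, Bcl2l1 in ESCs was at 0.058 and 0.058, Bax in ESCs at 0.13 and 0.13, Pmaip1 in ESCs at -0.093 and -0.093, and Bak1 in EpiLCs at 0.0075 and 0.0075. Fits without 1 library ranged from -0.0011 to 0.063 for Bid in ESCs, -0.0011 to 0.065 for Pmaip1 in ESCs, -0.24 to 0.0023 for Bax in EpiLCs, -0.084 to 0.11 for Bbc3 in EpiLCs, -0.087 to 0.039 for Bcl2l11 in EpiLCs, and -0.15 to 0.075 for Bax in the difference. The cause was not tested. With at least 10 counts in every library or RLE, no call on a member changed. The fit without a filter repeated the main fit, since the filter had removed no gene. Depth limits Bcl2, at 38 to 69 counts.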
